A study of Mus musculus with 6 samples.

Results

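Integrins, cadherins and claudins are the main families of cell adhesion receptors, and their transcripts were followed here in mouse spermatogonia. The members are the protein-coding genes whose symbol begins with Itga, Itgb, Cdh or Cldn followed by a digit, without Itga6, Itgb1 and Cdh1. They number 74 of the 31918 genes in the table (21968 of them protein coding), namely 11 integrin alpha, 8 integrin beta, 22 cadherin and 33 claudin genes. RNA came from spermatogonia of postnatal day 8 pups of the Id4-eGfp (LT11) transgenic line, named for their level of the ID4-GFP reporter as ID4-GFP Bright cells with high Id4 (Bright, 3 libraries) and ID4-GFP Dim cells with low Id4 (Dim, 3 libraries). Every library, Dim included, came from this transgenic line and from testis. The comparison asks which adhesion genes differ with the Id4 level of the germ cells. Neither the number of pups nor the source animals of each library are given by the labels, so the p-values measure the spread between these samples only, which may be technical.

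Integrins are heterodimers of an alpha and a beta chain that bind the extracellular matrix, and the alpha chain largely sets the ligand. Classical cadherins join cells to each other in a calcium-dependent manner and are anchored inside the cell by catenins. Claudins are the tetraspan proteins that form the strands of tight junctions, where occludin and the zonula occludens proteins join them. In the seminiferous epithelium spermatogonia rest on a laminin-rich basement membrane, and Sertoli cells build the tight junctions of the blood-testis barrier above them. Alpha 6 and beta 1 integrin and E-cadherin are familiar surface markers of undifferentiated spermatogonia. They are mentioned below only as partners of the members.

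Levels are given in FPKM, fragments per kilobase of transcript scaled to library depth, which allows comparison between genes of different length. The FPKM step of low genes showed that 1 fragment per kilobase stood for about 0.0265 to 0.0428 FPKM in the 6 libraries, so values below about 0.1 FPKM rest on few reads. Id4 was at 28.5, 42.7 and 39.7 FPKM in Bright 1, 2 and 3, against 3.75, 4.71 and 5.39 FPKM in Dim 1, 2 and 3. The germ cell gene Dazl was at 437.7 to 504.8 FPKM in Bright and 570.7 to 669.7 FPKM in Dim. It belongs to a list of 7 sort and germ cell markers, in which Kit was also higher in every Dim library. Gfra1, Sall4 and Zbtb16, like Id4, were higher in every Bright library, and the groups overlapped for Ddx4. The list summed to 989.1 to 1083 FPKM in Bright and to 955.8 to 1139 FPKM in Dim, so these sums overlapped. Bright 3 stood apart. The summed level of 11 Sertoli markers was 733.2 FPKM in this library, against 60.7 to 90.0 FPKM in the other 5 libraries, and all 8 Leydig markers were highest there, with Hsd3b6 at 60.9 FPKM in Bright 3 and listed at 0 in the other 5. Its summed peritubular myoid (5 genes), stromal (7 genes) and endothelial (9 genes) markers were 81.2, 212.7 and 59.7 FPKM, against 3.37 to 5.66, 24.8 to 36.6 and 25.3 to 39.4 FPKM in the other libraries. The 9 macrophage markers summed to 3.27, 3.96 and 161.7 FPKM in Bright 1, 2 and 3, and to 56.6, 64.4 and 3.98 FPKM in Dim 1, 2 and 3. Results that rest on Bright 3 are therefore given with and without it.

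Most members were low in spermatogonia of either kind. Of the 74 members, 9 were listed at 0 in all 6 libraries, all of them claudins, and 47 never reached 1 FPKM. The 27 that did comprised 6 integrin alpha, 6 integrin beta, 7 cadherin and 8 claudin genes. Only 11 members were at 1 FPKM or more in all 6 libraries, namely Itga3, Itga7, Itga9, Itgb3, Itgb5, Cdh2, Cdh3, Cdh15, Cdh24, Cldn3 and Cldn12. The highest mean levels over the 6 libraries were those of Cldn12 at 26.6 FPKM and Itgb5 at 16.4 FPKM, followed by Cdh3 at 9.27 FPKM. Integrin alpha members summed to 22.6, 23.5 and 24.5 FPKM in Bright 1, 2 and 3, against 14.4, 16.2 and 13.4 FPKM in Dim 1, 2 and 3. Integrin beta members summed to 27.9, 33.5 and 32.4 FPKM in Bright and to 15.4, 17.4 and 13.6 FPKM in Dim. For both chains the summed level of every Bright library was above that of every Dim library. Itgb5 alone made up 75.6% of the mean beta sum in Bright and 58.9% in Dim, so the beta sums mostly follow this gene. Cadherin members summed to 37.8, 39.0 and 44.8 FPKM in Bright and to 35.0, 34.3 and 32.1 FPKM in Dim. Claudins summed to 36.7, 29.3 and 79.4 FPKM in Bright and to 47.2, 38.2 and 36.3 FPKM in Dim. Without Cldn11 and Cldn5, both high in Bright 3, the claudin sums were 36.2, 28.0 and 27.8 FPKM in Bright and 45.5, 36.7 and 35.6 FPKM in Dim.

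**Figure D1:**
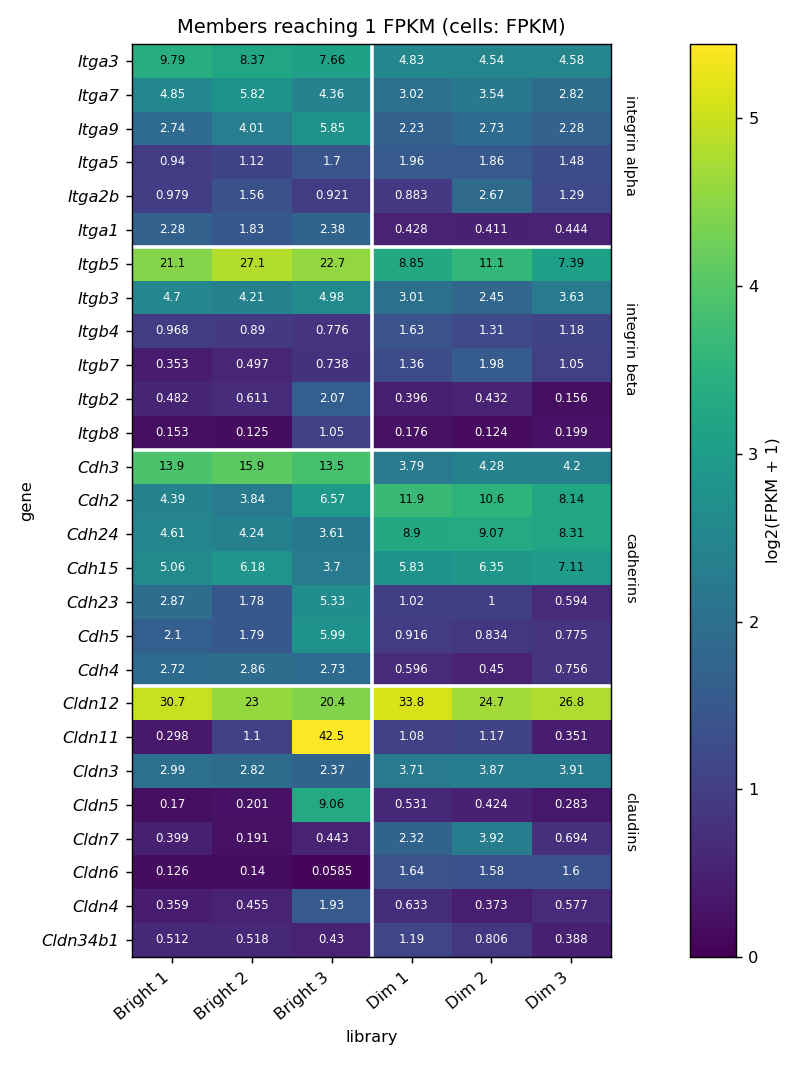
Level of the 27 members that reached 1 FPKM in at least 1 library, with libraries in columns (Bright left, Dim right) and genes in rows grouped by family; the number in each cell is FPKM and the colour is log2(FPKM + 1). Itgb5, Cdh3 and Cldn12 hold the highest rows of their families, and Cldn11 (42.5 FPKM) and Cldn5 (9.06 FPKM) stand out in Bright 3 alone.

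Bright was compared with Dim in limma on log2(FPKM + 1) over the 13416 genes that reached 1 FPKM in at least 3 libraries, 21 of them members. At a Benjamini-Hochberg adjusted p under 0.05, 8 of these 21 members had a higher level in Bright and 4 a lower one, which is 57.1% of them. Across all genes tested 22.5% were called, 12.0% towards Bright and 10.5% towards Dim. The median log2 fold change was 0.49 over the 21 members and -0.03 over all genes tested, and the median size without sign was 0.76 and 0.30 (the first for members). The median of the members was -0.08 without Bright 3, with Cldn11 changing sign, although the calls remained at 8 and 4 and all 12 genes were kept. Over all genes tested that fit called 1418 towards Bright and 1123 towards Dim, against 1608 and 1408 with all libraries. The groups did not overlap in 16 of the 21 members, against 41.1% of all genes tested. These shares describe only members that passed the filter. It was set on all 6 libraries and was not reset when a library was left out. Of the 21, 6 passed it through one group alone (Itga1, Itgb4, Itgb7, Cdh4, Cdh5 and Cldn6), and such genes had to differ to enter. With no filter 65 members could be fitted, of which 6 were called towards Bright and 4 towards Dim (15.4%), against 9.10% of the 25647 genes in that fit. The count towards Bright was lowest without Dim 3, at 5. Since the RNA came from bulk cells, fewer cells of a type and less RNA per cell cannot be told apart.

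**Figure D2:**
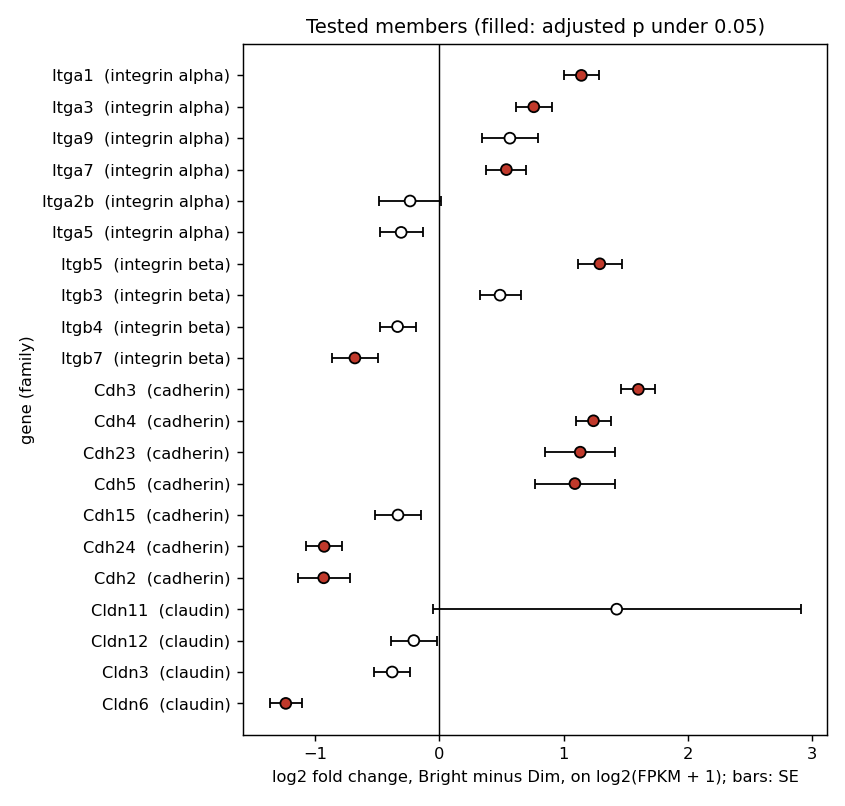
Log2 fold change (Bright minus Dim, on log2(FPKM + 1)) of the 21 members tested, grouped by family, with bars showing the standard error; filled points passed an adjusted p of 0.05 in limma. On this scale Cdh3 lies farthest to the right among the called members at 1.60 and Cldn6 farthest to the left at -1.23, and the wide bar belongs to Cldn11.

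ID proteins work by holding E proteins away from the E-box, the DNA sequence CANNTG, and the E-box form CAGGTG is the one that E proteins and the SNAIL and ZEB repressors of cadherin genes bind. Promoters in RefSeq on GRCm38.p6, each 250 bases before to 50 bases after a gene start, were therefore searched for CAGGTG and its reverse complement CACCTG, which are forms of CANNTG and overlap with it. The table held 65 promoters of 53 members. CAGGTG on either strand was found in 15 of these 65 (23.1%), against 20.2% of all 32851 promoters. CANNTG was found in 47 (72.3%), against 72.3% of all promoters. The table held 5 promoters of 4 called genes with the higher level in Bright. Of these, 2 held CAGGTG on either strand and all 5 held CANNTG. It held 3 promoters of 3 called genes with the higher level in Dim. Of these, 1 held CAGGTG on either strand and all 3 held CANNTG. The 3 promoters with CAGGTG on either strand are shown, with that hexamer in capitals. They are Cldn6, the tested member with the largest fold change towards Dim (chr17:23679115-23679414, plus strand), Itgb5, the integrin member with the highest level (chr16:33829415-33829714, plus strand), and Itga3 (chr11:95076665-95076964, minus strand), each written in the direction of transcription.
Cldn6: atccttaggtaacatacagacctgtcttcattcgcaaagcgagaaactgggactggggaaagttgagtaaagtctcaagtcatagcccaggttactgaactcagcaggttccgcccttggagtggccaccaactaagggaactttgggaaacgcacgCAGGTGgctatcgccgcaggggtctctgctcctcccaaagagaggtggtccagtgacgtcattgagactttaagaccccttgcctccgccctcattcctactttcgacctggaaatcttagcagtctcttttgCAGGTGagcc
Itgb5: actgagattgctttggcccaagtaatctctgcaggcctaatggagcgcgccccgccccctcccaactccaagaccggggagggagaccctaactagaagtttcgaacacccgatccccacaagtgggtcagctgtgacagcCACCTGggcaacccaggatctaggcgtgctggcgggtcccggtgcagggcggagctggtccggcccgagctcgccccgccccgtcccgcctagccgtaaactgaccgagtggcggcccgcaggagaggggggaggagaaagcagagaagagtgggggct
Itga3: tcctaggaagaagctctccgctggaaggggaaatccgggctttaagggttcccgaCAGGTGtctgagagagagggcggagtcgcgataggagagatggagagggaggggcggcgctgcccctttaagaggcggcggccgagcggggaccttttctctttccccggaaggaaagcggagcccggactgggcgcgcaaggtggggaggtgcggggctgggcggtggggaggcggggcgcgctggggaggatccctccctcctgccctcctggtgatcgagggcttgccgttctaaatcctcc
Counted from the gene start, the hexamers begin at -93 and 41 in Cldn6, at -109 in Itgb5 and at -195 in Itga3. The Cldn6 and Itga3 hexamers read CAGGTG on the strand shown and that of Itgb5 reads CACCTG. Genes of both directions thus held the same hexamer, and the match is a description of the letters, not of binding.

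Among integrin alpha members, limma called 3 of the 6 tested, each with the higher level in Bright, where 12.0% of all genes tested were called. It called 0 with the higher level in Dim, with 0 also at an unadjusted p under 0.05 and 0 in the authors' deposited table. Of the 3 called chains, Itga1 had passed the filter through Bright alone, and such genes had to differ to enter. The called chains bind laminin or collagen. Itga3, a laminin receptor chain, had 9.79, 8.37 and 7.66 FPKM in Bright 1, 2 and 3, against 4.83, 4.54 and 4.58 FPKM in Dim 1, 2 and 3. All Bright values lay above all Dim values, with a log2 fold change of 0.76 ± 0.14 (SE, adjusted p = 0.00708). Itga7, the laminin receptor chain best known from skeletal muscle, had 4.85, 5.82 and 4.36 FPKM in Bright and 3.02, 3.54 and 2.82 FPKM in Dim. These groups did not overlap either, but the difference was smaller, at 0.54 ± 0.16 (adjusted p = 0.0429). It remained called without Bright 3 (0.0383) and not without Bright 1 (0.0931), Bright 2 (0.124), Dim 1 (0.0968), Dim 2 (0.073) or Dim 3 (0.147).

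Itga1, a collagen receptor chain (chromosome 13, 114958079 to 115101964), showed the largest fold change of the alpha members tested. Its values were 2.28, 1.83 and 2.38 FPKM in Bright, against 0.428, 0.411 and 0.444 FPKM in Dim. The 3 Dim values lay close together, well below the lowest Bright value, and the log2 fold change was 1.14 ± 0.14 (adjusted p = 0.00109). Of the other collagen receptor chains, Itga2, the neighbour of Itga1 at a distance of 26038 bases, averaged 0.164 ± 0.105 FPKM in Bright and 0.0499 ± 0.0124 FPKM in Dim (SD, n = 3 each). Itga10 and Itga11 also stayed under 1 FPKM in all 6 libraries. Itga9, which binds tenascin and other ligands, had 2.74, 4.01 and 5.85 FPKM in Bright, with its highest value in Bright 3, and 2.23, 2.73 and 2.28 FPKM in Dim. Its log2 fold change of 0.57 did not pass (adjusted p = 0.107). It was 0.35 without Bright 3 (0.227) and 0.78 without Bright 1, where it passed (0.0368). The fibronectin receptor chain Itga5 averaged 1.25 ± 0.397 FPKM in Bright and 1.77 ± 0.255 FPKM in Dim, and the platelet chain Itga2b 1.15 ± 0.351 and 1.61 ± 0.935 FPKM (SD, n = 3 each). Neither passed (adjusted p = 0.244 and 0.548). The chains Itga4 and Itga8 were under 0.5 FPKM in every library.

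The called alpha chains all pair with beta 1. Itgb1 was at 79.6 ± 4.45 FPKM in Bright and 87.7 ± 8.68 FPKM in Dim (SD, n = 3 each), its groups overlapped, and it did not pass (adjusted p = 0.51). The alpha 6 chain Itga6 was at 82.7 and 30.4 FPKM on average in Bright and Dim, so Itga3 and Itga7 lay far below it in both groups.

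Among the beta members, 4 were tested and 1 was called in each direction, where 22.5% of all genes tested were called in either. Itgb4 and Itgb7 had passed the filter through Dim alone, and such genes had to differ to enter. Itgb5 (chromosome 16, 33829665 to 33949153), whose protein pairs with alpha V to bind vitronectin, was the highest of all 19 integrin members. It had 21.1, 27.1 and 22.7 FPKM in Bright 1, 2 and 3, against 8.85, 11.1 and 7.39 FPKM in Dim 1, 2 and 3. All Bright libraries lay well above all Dim libraries, with a ratio of means of 2.59 and a log2 fold change of 1.29 ± 0.17 (adjusted p = 0.00157). The call was kept with each library left out in turn. Its partner Itgav, named here although outside the naming rule, averaged 4.59 ± 1.7 FPKM in Bright and 4.24 ± 1.1 FPKM in Dim, with overlapping groups (SD, n = 3 each, adjusted p = 0.86). Its log2 fold change of 0.07 turned to -0.15 without Bright 3 and to -0.11 without Dim 3.

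Itgb3, the other alpha V partner among the members tested, had 4.70, 4.21 and 4.98 FPKM in Bright, against 3.01, 2.45 and 3.63 FPKM in Dim. The groups did not overlap, but it did not pass (log2 fold change 0.49 ± 0.16, adjusted p = 0.0657). Itgb7, a chain known from lymphocytes, went the other way, with 0.353, 0.497 and 0.738 FPKM in Bright and 1.36, 1.98 and 1.05 FPKM in Dim (log2 fold change -0.68 ± 0.18, adjusted p = 0.0307). It was not called without Bright 1 (0.0907), Bright 2 (0.0599), Dim 1 (0.0539) or Dim 2 (0.106). Itgb4, the hemidesmosome chain that pairs with alpha 6, averaged 0.878 ± 0.097 FPKM in Bright and 1.38 ± 0.234 FPKM in Dim (SD, n = 3 each) and did not pass (adjusted p = 0.137). Itgb2, the leukocyte chain, reached 1 FPKM in Bright 3 alone, at 2.07 FPKM, and was at 0.482 and 0.611 FPKM in Bright 1 and 2 and at 0.396, 0.432 and 0.156 FPKM in Dim. Itgb8 was likewise at 1.05 FPKM in Bright 3 and at 0.124 to 0.199 FPKM in the other 5 libraries. The macrophage markers given above were also highest in Bright 3, at a sum of 161.7 FPKM. In Dim 1, 2 and 3 they summed to 56.6, 64.4 and 3.98 FPKM. Itgb7 was likewise highest in Bright 3 among the Bright libraries and lowest in Dim 3 among the Dim libraries. The part of macrophage RNA in the Itgb2 and Itgb7 values was not tested.

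**Figure D3:**
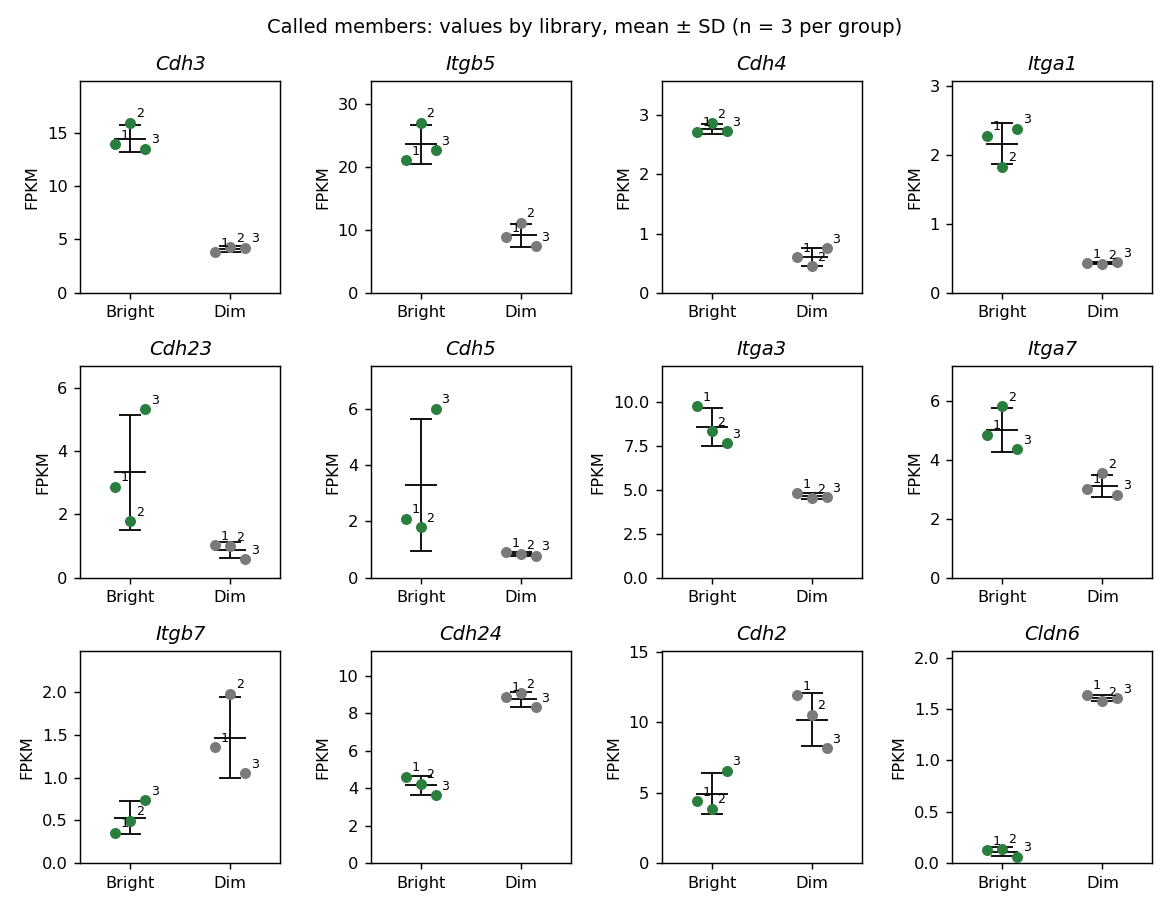
FPKM of the 12 called members in each library (points numbered by replicate) with the mean and SD of Bright (left) and Dim (right), n = 3 each, on axes that start at 0. The groups do not overlap in any panel; Cdh5 and Cdh23 are spread widely in Bright, with Bright 3 at 5.99 and 5.33 FPKM.

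Cadherins changed in both directions. Of the 7 members tested, 4 had the higher level in Bright and 2 the higher level in Dim, where 22.5% of all genes tested were called. Of these 7, Cdh4 and Cdh5 had passed the filter through Bright alone, and such genes had to differ to enter. Cdh3, P-cadherin (chromosome 8, 106510913 to 106556908), had the highest mean level of the cadherin members. It was at 13.9, 15.9 and 13.5 FPKM in Bright 1, 2 and 3, against 3.79, 4.28 and 4.20 FPKM in Dim 1, 2 and 3. Replicates of each group lay close together, with means of 14.4 ± 1.3 and 4.09 ± 0.262 FPKM (SD, n = 3 each), a ratio of 3.54 and a log2 fold change of 1.60 ± 0.14 (adjusted p = 0.000237). Cdh1, E-cadherin, lies beyond it on the same chromosome (106603351 to 106670246) and also averaged more in Bright, at 12.1 against 4.51 FPKM. Cdh4, R-cadherin, was at 2.72, 2.86 and 2.73 FPKM in Bright, against 0.596, 0.450 and 0.756 FPKM in Dim. It was the most even of the called cadherins within Bright, with a ratio of means of 4.61 and a log2 fold change of 1.24 ± 0.14 (adjusted p = 0.00083).

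Cdh2 and Cdh24 were lower in Bright. Cdh2, N-cadherin, which also joins germ cells to Sertoli cells, had 4.39, 3.84 and 6.57 FPKM in Bright, against 11.9, 10.6 and 8.14 FPKM in Dim. The nearest values of the groups were those of Bright 3 and Dim 3, and the log2 fold change was -0.93 ± 0.21 (adjusted p = 0.0147), or -1.12 without Bright 3. Cdh24, a type II cadherin, had 4.61, 4.24 and 3.61 FPKM in Bright and 8.90, 9.07 and 8.32 FPKM in Dim (log2 fold change -0.93 ± 0.14, adjusted p = 0.00282). The calls of Cdh2, Cdh3, Cdh4 and Cdh24 were kept with each library left out in turn. The filter was not reset in these fits, and Cdh4 had passed it through Bright alone. Cdh15, M-cadherin of muscle, averaged 4.98 ± 1.24 FPKM in Bright and 6.43 ± 0.639 FPKM in Dim (SD, n = 3 each) and did not pass (adjusted p = 0.237). P-cadherin and N-cadherin thus took opposite directions, and Cdh3 averaged above Cdh2 in Bright while Cdh2 averaged above Cdh3 in Dim.

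The remaining called cadherins were highest in Bright 3. Cdh23, the cadherin of the tip links of hair cells, had 2.87, 1.78 and 5.33 FPKM in Bright, against 1.02, 1.00 and 0.594 FPKM in Dim. Its log2 fold change was 1.13 ± 0.28 (adjusted p = 0.0224), and 0.82 (0.034) without Bright 3. It was not called without Bright 1 (0.0511) or Dim 3 (0.082). Cdh5, VE-cadherin of endothelial cells, had 2.095, 1.79 and 5.99 FPKM in Bright, against 0.916, 0.834 and 0.775 FPKM in Dim. Its log2 fold change was 1.09 ± 0.32 (adjusted p = 0.0443), and 0.67 (0.0175) without Bright 3. It was not called without Bright 1 (0.0515), Dim 1 (0.118), Dim 2 (0.125) or Dim 3 (0.127). Of the 9 endothelial markers 8 were highest in Bright 3. In Bright 1 and 2, Kdr (2.35 and 1.69 FPKM), Pecam1 (1.88 and 1.51 FPKM), Tek (1.61 and 1.43 FPKM) and Vwf (0.590 and 0.551 FPKM) lay above every Dim library, where their highest values were 0.315, 1.02, 0.763 and 0.403 FPKM. Cd34 (2.02 and 1.81 FPKM) lay below every Dim library (2.56 to 2.69 FPKM), and Egfl7 (16.7 and 24.9 FPKM) was at 24.2 to 34.4 FPKM in Dim. Esam, Tie1 and Emcn were at 0.0249 to 0.0871 FPKM in Bright 1 and 2 and at 0 to 0.130 FPKM in Dim. The part of endothelial RNA in the Cdh5 values was not tested. The 15 cadherins that were not tested stayed under 1 FPKM in every library, with Cdh20 reaching 0.905 FPKM in Bright 2.

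Cldn12 had the highest level of the claudins in 5 of the 6 libraries and did not pass the test. Limma called 1 of the 4 claudins tested, with the higher level in Dim, where 22.5% of all genes tested were called in either direction. The called gene, Cldn6, had passed the filter through Dim alone, and such genes had to differ to enter. Limma called 0 towards Bright, and 0 towards Bright also at an unadjusted p under 0.05. The authors' deposited table called 2 towards Bright (Cldn11 and Cldn5). Cldn12, an atypical claudin linked to calcium permeability in gut epithelium (chromosome 5, 5489537 to 5514958), had 30.7, 23.0 and 20.4 FPKM in Bright 1, 2 and 3, against 33.8, 24.7 and 26.8 FPKM in Dim 1, 2 and 3. The groups overlapped and the log2 fold change was -0.20 ± 0.19 (adjusted p = 0.471). All other claudins together summed to 6.01 and 6.29 FPKM in Bright 1 and 2, to 58.9 FPKM in Bright 3 and to 13.3, 13.6 and 9.42 FPKM in Dim.

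Cldn6, a claudin of embryonic epithelia (chromosome 17, 23679365 to 23682446), was the tested member with the largest fold change towards Dim. It was at 0.126, 0.140 and 0.0585 FPKM in Bright, against 1.64, 1.58 and 1.60 FPKM in Dim. The 3 Dim values were nearly equal and the Bright values were within a few fragments of 0. The log2 fold change on log2(FPKM + 1) was -1.23 ± 0.13 (adjusted p = 0.000604), which understates the ratio of means of 14.8 in favour of Dim. Its neighbour Cldn9, 138 bases away, averaged 0.0249 FPKM in Bright and 0.0383 FPKM in Dim. Cldn3, a widespread barrier-forming claudin that Sertoli cells also express, had 2.99, 2.82 and 2.37 FPKM in Bright, against 3.71, 3.87 and 3.91 FPKM in Dim. The groups did not overlap, but the difference did not pass (log2 fold change -0.38 ± 0.15, adjusted p = 0.1). Cldn4, the neighbour of Cldn3 at 39280 bases, had 1.93 FPKM in Bright 3 and 0.359 to 0.633 FPKM in the other libraries.

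Cldn7, an epithelial claudin, was outside the filter and is named after its values were seen. It had 0.399, 0.191 and 0.443 FPKM in Bright, against 2.32, 3.92 and 0.694 FPKM in Dim 1, 2 and 3. Dim 1 and 2 lay far above Dim 3, and these libraries also carried summed macrophage markers of 56.6 and 64.4 FPKM, against 3.98 FPKM in Dim 3. In Bright 3 the macrophage markers summed to 161.7 FPKM, and their part in the Cldn7 values was not tested. Fitted with no filter, Cldn7 did not pass (log2 fold change -1.17 ± 0.37, adjusted p = 0.109), whereas the authors' deposited table called it lower in Bright (log2 ratio -2.64, q = 0.0102).

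Cldn11 and Cldn5 were high in a single library. Cldn11, the claudin of Sertoli cell tight junctions, was at 0.298, 1.10 and 42.5 FPKM in Bright 1, 2 and 3, against 1.08, 1.17 and 0.351 FPKM in Dim 1, 2 and 3. Its log2 fold change of 1.43 ± 1.48 did not pass (adjusted p = 0.552) and was -0.15 without Bright 3 (0.766). Cldn5, known from endothelium and also from Sertoli cells, was at 0.170, 0.201 and 9.06 FPKM in Bright and 0.531, 0.424 and 0.283 FPKM in Dim. Without Bright 3 neither gene had a Bright value above its highest Dim value. The summed Sertoli and endothelial markers were also highest in Bright 3, with Clu at 428.9 FPKM there against 2.61 to 13.7 FPKM elsewhere, and their part was not tested. Across all members, 27 of the 65 that were above 0 in some library had their highest value in Bright 3, and 5 of those reaching 1 FPKM (Cldn11, Cldn5, Cldn4, Itgb2 and Itgb8) exceeded the next Bright library there by more than 3 times.

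**Figure D4:**
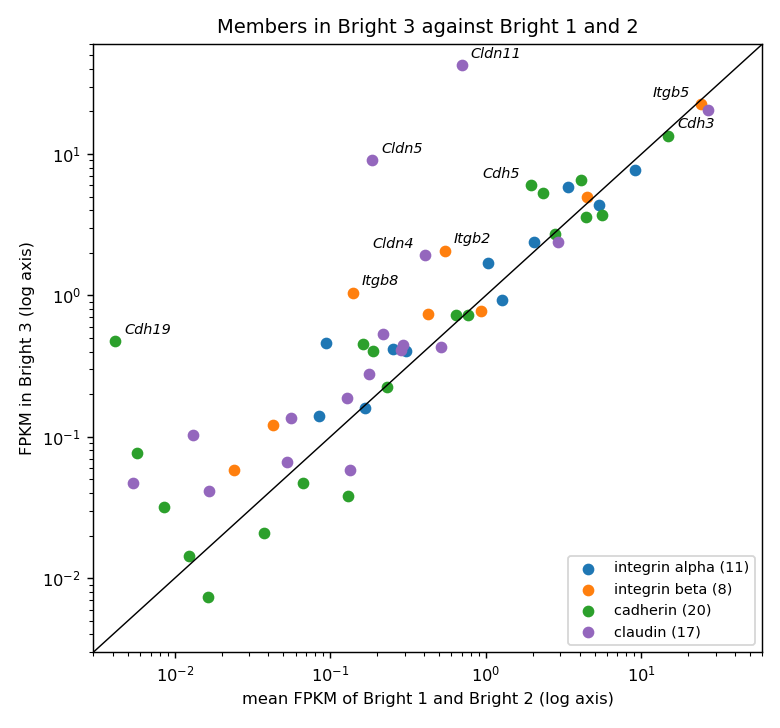
FPKM of 56 members above 0 in both measures, with the mean of Bright 1 and Bright 2 on the horizontal axis and Bright 3 on the vertical axis (both log axes); the line marks equal values and colours mark families. Itgb5 and Cdh3 lie near the line, and Cldn11 lies highest above it, at 42.5 FPKM in Bright 3.

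Proteins that work with these receptors were followed in 5 lists, and up to 4 called genes of each are named. For the counts without Bright 3, that fit called 1418 of all genes tested towards Bright and 1123 towards Dim. With all libraries these were 1608 and 1408. Of 20 tight junction partners tested, 6 were called towards Bright and 2 towards Dim, against 22.5% of all genes called in either direction, with a median log2 fold change of 0.39 against -0.03 over all genes. Ocln, occludin, had 19.8, 20.4 and 26.1 FPKM in Bright 1, 2 and 3, against 4.01, 4.58 and 5.72 FPKM in Dim 1, 2 and 3, a log2 fold change of 2.00 ± 0.17 (adjusted p = 0.000232). Tjp1, the scaffold ZO-1, had 144.3, 90.3 and 128.1 FPKM in Bright and 53.4, 33.3 and 43.9 FPKM in Dim (log2 fold change 1.45 ± 0.22, adjusted p = 0.00281). F11r, the junctional adhesion molecule JAM-A, averaged 61.3 ± 5.59 FPKM in Bright and 32.8 ± 3.53 FPKM in Dim (SD, n = 3 each, adjusted p = 0.00286). In these 3 genes every Bright library lay above every Dim library. The counts of this list were 6 and 1 without Bright 3, where Tjp3 was no longer called.

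Of 17 tested basement membrane and matrix ligands, 6 were called towards Bright and 4 towards Dim, where 22.5% of all genes tested were called. The median log2 fold change was 0.40. Without Bright 3 the counts were 6 and 3 (Fbln1 lost) and the median 0.02. Nid1 and Nid2, the nidogens that link laminin to collagen IV, were both higher in Bright. Nid1 had 21.6, 17.8 and 22.4 FPKM in Bright, against 2.22, 1.79 and 2.36 FPKM in Dim (log2 fold change 2.79 ± 0.15, adjusted p = 3.49e-05). Nid2 averaged 42.3 ± 3.38 FPKM in Bright and 17.5 ± 0.882 FPKM in Dim (adjusted p = 0.000541), and Col18a1, a basement membrane collagen, 15.4 ± 2.08 and 2.25 ± 0.205 FPKM (SD, n = 3 each, adjusted p = 7.9e-05). Npnt, nephronectin, a ligand of alpha 8 integrin, was lower in Bright, at 2.78, 1.22 and 1.72 FPKM, against 9.72, 7.06 and 6.71 FPKM in Dim (log2 fold change -1.62 ± 0.23, adjusted p = 0.00187). Its receptor chain Itga8 was among the members under 0.5 FPKM. The calls of these 4 ligands were kept with each library left out in turn.

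Of 22 integrin adaptors and kinases tested, 5 were called towards Bright and 2 towards Dim, where 22.5% of all genes tested were called. The median log2 fold change was 0.33. Without Bright 3 the counts were 2 and 1, with Actn1, Tns3, Flna and Ilk lost. Over all genes tested the counts also fell without Bright 3, from 1608 and 1408 to 1418 and 1123. Parva, alpha-parvin of the complex that ties integrins to actin, had 6.29, 6.35 and 6.23 FPKM in Bright, against 1.61, 2.39 and 2.101 FPKM in Dim (log2 fold change 1.27 ± 0.16, adjusted p = 0.00103). Itgb1bp1, which encodes ICAP-1, a protein that binds the beta 1 tail and counters integrin activation, was lower in Bright, at 7.81, 9.37 and 10.4 FPKM, against 18.7, 26.2 and 23.9 FPKM in Dim (log2 fold change -1.23 ± 0.17, adjusted p = 0.00181). These 2 calls were kept with each library left out. The actin cross-linker Actn1 averaged 15.1 ± 3.4 FPKM in Bright and 7.58 ± 1.5 FPKM in Dim (SD, n = 3 each, adjusted p = 0.015), a call lost without Bright 3 (0.054). The tensin Tns3 averaged 26.8 ± 5.75 FPKM in Bright and 14.2 ± 2.84 FPKM in Dim (SD, n = 3 each, adjusted p = 0.0165), lost without Bright 1 (0.0511) or Bright 3 (0.0527). Its log2 fold change was 0.87 both with all libraries and without Bright 3.

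Among 15 catenins and cadherin partners tested, 1 was called in each direction, where 22.5% of all genes tested were called (median log2 fold change 0.10). The counts were 2 towards Bright and 1 towards Dim without Bright 3, where Pvrl2 was gained. Pvrl1 and Pvrl3, the nectins 1 and 3 of adherens junctions, took opposite directions. Pvrl1 had 4.18, 4.02 and 3.04 FPKM in Bright, against 1.13, 1.38 and 1.58 FPKM in Dim (log2 fold change 1.00 ± 0.17, adjusted p = 0.00373). Pvrl3 had 14.8, 15.6 and 11.8 FPKM in Bright, against 29.3, 23.5 and 22.7 FPKM in Dim (log2 fold change -0.80 ± 0.16, adjusted p = 0.00919). Ctnnb1, beta-catenin, was at 205.5 ± 16.7 and 174.7 ± 20.7 FPKM and Ctnna1, alpha-catenin, at 61.2 ± 0.969 and 57.8 ± 4.57 FPKM in Bright and Dim (SD, n = 3 each). Neither passed (adjusted p = 0.318 and 0.669), and both are named outside the rule.

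Of 7 factors tested that are known to repress cadherin or claudin genes, 2 were called towards Bright and 1 towards Dim (median log2 fold change 0.08). Of all genes tested 22.5% were called. Without Bright 3 the counts by limma were 1 and 0. Twist1, a helix-loop-helix factor, averaged 7.4 ± 2.19 FPKM in Bright and 2.59 ± 0.858 FPKM in Dim (SD, n = 3 each, adjusted p = 0.00964), a call kept with each library left out. Tcf4, an E protein, averaged 9.49 ± 3.63 and 4.78 ± 0.933 FPKM in Bright and Dim (SD, n = 3 each, adjusted p = 0.0459). It was no longer called without Bright 1 (0.0819), Bright 3 (0.0972), Dim 1 (0.0894), Dim 2 (0.122) or Dim 3 (0.0684). Snai3, of the SNAIL family, averaged 7.26 ± 1.18 FPKM in Bright and 11.6 ± 0.671 FPKM in Dim (SD, n = 3 each, adjusted p = 0.0205), a call lost without Bright 3 (0.0501), Dim 2 (0.0731) or Dim 3 (0.0662).

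**Figure D5:**
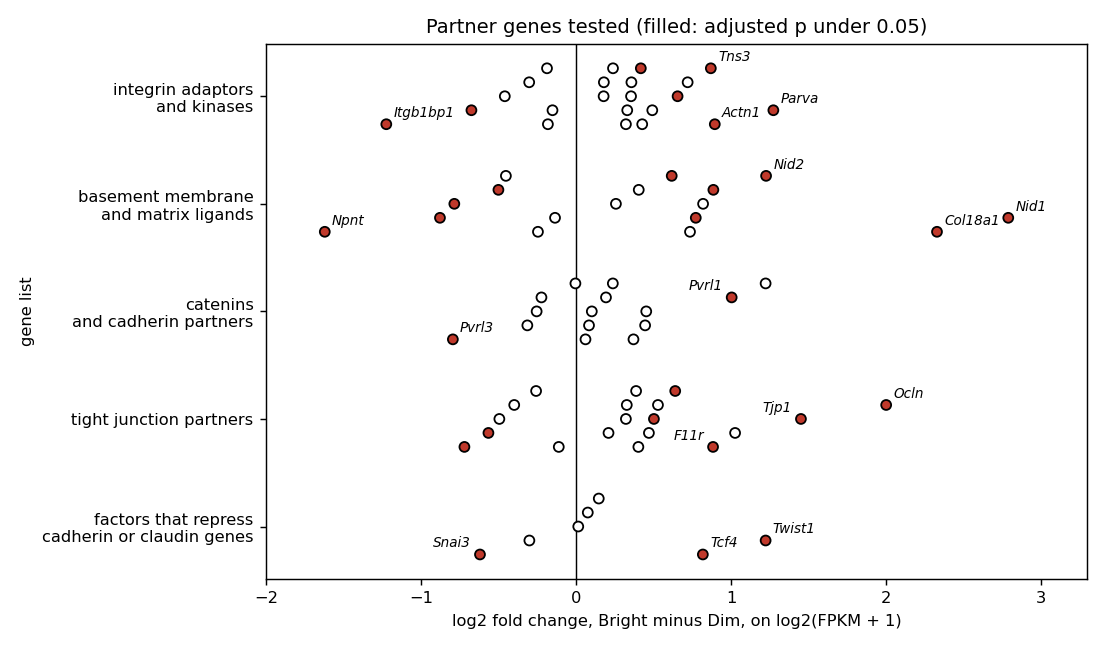
Log2 fold change (Bright minus Dim, on log2(FPKM + 1)) of tested partner genes, 1 row of points per list with a vertical offset for legibility only; filled points passed an adjusted p of 0.05. Nid1 at 2.79, Col18a1 at 2.33 and Ocln at 2.00 lie farthest to the right, and Npnt at -1.62 farthest to the left.

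The authors' deposited table called 13 of the 74 members at q under 0.05, 10 towards Bright and 3 towards Dim, where it called 7.71% of all 31918 genes. It shared 8 members with the limma calls, all in the same direction. The 4 called by limma only were Cdh24 (q = 0.48), Itga7 (q = 0.227), Itga1 (q = 0.0743) and Itgb7 (q = 0.054) in the authors' deposited table. The 5 called there only were Cldn11, Cldn5, Cldn7, Itgb2 and Cdh13. Of these, Cldn11, Cldn5 and Itgb2 were among the members with a high value in Bright 3 alone.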

How the data were processed

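Total RNA of 3 Bright and 3 Dim samples was extracted with Trizol and copied into cDNA from an oligo d(T) primer, per the labels' protocols. The submitters' processing notes name TopHat2 (2.1.1), Cufflinks (2.2.1) and mm9. Parameters and strand handling are not given in the sources used here, so reads of a gene and of its antisense or overlapping partner cannot be separated. The deposited values are FPKM per gene and library and were not changed before the log step. The authors also deposited a comparison of the groups with a log2 ratio, a p-value and a q-value per gene, whose settings are not stated. All 74 members overlapped their GENCODE M21 gene on GRCm38, 54 with identical coordinates, so coordinates are given on GRCm38.

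Values were used as log2(FPKM + 1), which understates changes of low genes. Genes that reached 1 FPKM in 3 or more of the 6 libraries were fitted in limma 3.58.1 (R 4.3.3) with trend and robust moderation, the group as the only term and Benjamini-Hochberg adjustment over all 13416 genes; adjusted p under 0.05 was called. The procedure was tested on simulated data. Alternatives were a pseudocount of 0.1, no filter, rescaling by the median ratio, no trend, a replicate block and each library left out; the authors' q-values and the partner lists without Bright 3 were added after seeing the data. The filter was set once on all 6 libraries, also for the fits with a library left out. An exact permutation test of 3 against 3 libraries cannot go below p = 0.1 and was not used. Read depth is known only from the FPKM step of single-transcript genes, at an assumed fragment length of 150 bases, and no counting intervals are given. Named were all called members, the 3 highest of each family, members with 1 library over 3 times the next of its group, and up to 4 called genes per partner list. One gene that this rule selects is not reported or plotted here, though the counts of its list include it. Members and lists were chosen with earlier results of these data known.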

Additional observations from a re-analysis of the deposited data

How the results depend on the processing

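With each library left out in turn, 5 to 8 members were called towards Bright (8 with all libraries) and 3 to 4 towards Dim (4 with all). Over all genes these counts were 1095 to 1418 towards Bright and 849 to 1225 towards Dim, with 1608 and 1408 in all libraries. The counts of members stayed within 1.5 times under a pseudocount of 0.1, no filter, rescaling, no trend and the replicate block, and in the authors' deposited table, which called 844 genes towards Dim. With no filter Itga7, Itgb7, Cdh5 and Cdh23 lost their calls and Cdh13 and Cdh22 gained one, and rescaling lost Cdh5; the cause was not tested. Direction changed without Bright 3 for Cldn11 (-0.15) and Itgav (-0.15), and without Dim 3 for Itgav (-0.11); over the libraries left out these ranged up to 2.387 for Cldn11 and 0.2807 for Itgav. The labels do not say what the shared library numbers mean, so the main fit did not take them as pairs. Same-numbered libraries deviated together for numbers 1 (r = 0.435 across genes) and 2 (r = 0.511) but not 3 (r = -0.194). With Bright 3 standing apart in its somatic markers, these correlations do not settle whether the libraries are paired. With the replicate block 2607 genes were called towards Bright and 2846 towards Dim, and members remained at 8 and 4, with Itgb3 and Itga9 gained and Cdh5 and Cdh23 lost. Values under about 0.1 FPKM rest on few fragments.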

Other observations

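Some cadherins and claudins below the filter of 1 FPKM lay apart by group at a low level, though not all passed a fit with no filter. All are named after their values were seen. Cdh13, T-cadherin, which is held to the membrane by a lipid anchor, was at 0.585, 0.698 and 0.728 FPKM in Bright 1, 2 and 3, against 0.219, 0.189 and 0.237 FPKM in Dim 1, 2 and 3. Fitted in limma with no filter, its difference was 0.46 ± 0.09 on the log2 scale (SE, adjusted p = 0.0269). In the authors' deposited table Cdh13 was also called (log2 ratio 1.92, q = 0.0229). Cdh22 was at 0.0238, 0.00879 and 0.00736 FPKM in Bright, against 0.226, 0.206 and 0.192 FPKM in Dim, a difference of -0.25 ± 0.03 on the log2 scale (SE, adjusted p = 0.00928), although it was not called in the authors' deposited table. Its Bright values are at or under the level of 1 fragment per kilobase. Cdh7 was at 0.0744, 0.0582 and 0.0467 FPKM in Bright and 0.412, 0.111 and 0.386 FPKM in Dim, and did not pass (adjusted p = 0.131). Cldn1 was at 0, 0.111 and 0.135 FPKM in Bright and 0.293, 0.237 and 0.247 FPKM in Dim, and did not pass either (adjusted p = 0.0914). In these 4 genes the groups did not overlap, which follows from how they were picked. The groups did not overlap in 29 of all 74 members. Of all genes tested, which had passed the filter, they did not overlap in 41.1%. The share over all genes without the filter was not taken, so the count of 29 is not read as a trait of the members.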
